A study of Mus musculus with 15 samples.

Results

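In whole liver of female mice, 3 of the CXC chemokine ligands carried more mRNA in old than in young wild-type animals: Cxcl1, Cxcl10 and Cxcl16. None of them differed between old S6K1 knockout and old wild-type liver at the threshold used. The group consists of 9 genes, Cxcl1, Cxcl2, Cxcl9, Cxcl10, Cxcl11, Cxcl12, Cxcl13, Cxcl14 and Cxcl16, chosen by name, out of 37991 gene identifiers in the count table. mRNA was sequenced from 15 livers, 5 per group. The young WT group held wild-type mice aged 90 days, the old WT group wild-type mice aged 600 days, and the old KO group mice aged 600 days that lacked S6K1 in the whole body. S6K1 is the ribosomal protein S6 kinase encoded by Rps6kb1, a target of mTORC1. All animals were on a C57BL/6 background, came from heterozygous breeding and ate chow. The old KO group can be set against old WT for genotype, while against young WT it differs in both age and genotype, since young knockout liver was not analysed here.

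CXC chemokines are small secreted proteins that bind G protein-coupled receptors on leukocytes and direct where these cells move. Cxcl1 and Cxcl2 act on Cxcr2 and draw in neutrophils. Cxcl9, Cxcl10 and Cxcl11 are induced by interferons and act on Cxcr3, found on activated T cells and NK cells. Cxcl12, Cxcl13 and Cxcl14 are made largely without inflammation, and Cxcl16 is a membrane-bound ligand of Cxcr6, the receptor of liver-resident lymphocytes. In the liver, hepatocytes, sinusoidal endothelium, Kupffer cells and stellate cells can all produce members of the family. The values here come from whole tissue, so more cells of a producing type and more RNA per cell cannot be told apart.

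The libraries held between 21801754 counts (young WT 6) and 38065359 counts (young WT 1), and 14258 genes passed the filter on low counts. Levels are given in CPM, counts scaled to a common library size with TMM factors. Rps6kb1 spanned 33.3 to 41.4 CPM among young WT livers, 34.6 to 45.4 among old WT livers and 15.2 to 20.8 among old KO livers, so every library labelled KO lay below every wild-type library. The 5 hepatocyte markers summed to between 78713 CPM in young WT 6 and 138268 CPM in old KO 5, so the genes that define the labelled tissue were high in every library. Young WT 6 stood apart among the young animals: it was the shallowest library and had the lowest summed hepatocyte markers. It also carried the highest Cxcl1, Cxcl2, Cxcl9, Cxcl10, Cxcl14 and Cxcl16 of its group. The age differences of Cxcl9, Cxcl10 and Cxcl14 are given with and without it. Those of Cxcl1 and Cxcl16 were called in 15 of 15 refits that each left out 1 library.

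Within the family, Cxcl12 was the most abundant by far. Divided by exon length, its level averaged 52.8 CPM per kb over the 15 livers and never fell below 45.5, while the highest value of any other member was 24.2 CPM per kb, for Cxcl9 in old WT 10. The mean length-scaled levels then ran from Cxcl9 at 6.65 CPM per kb through Cxcl13 at 3.24, Cxcl1 at 2.80, Cxcl16 at 2.51 and Cxcl10 at 2.08 to Cxcl11 at 0.960 and Cxcl14 at 0.834. The ranges of neighbours in this order overlapped from Cxcl9 to Cxcl14, so only the top place of Cxcl12 and the last place of Cxcl2, at 0.114 CPM per kb, were clear of the spread between livers. Cxcl12 made up 80.9% ± 6.9 (SD, n = 5) of the summed length-scaled level of the 9 genes in young WT, 66.0% ± 6.9 in old WT and 76.1% ± 3.4 in old KO. By group mean Cxcl9 came second with 6.27% ± 5.2, 13.0% ± 8.5 and 6.47% ± 1.2, a place not clear of the spread between livers. These shares are a description, with no test.

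**Figure D1:**
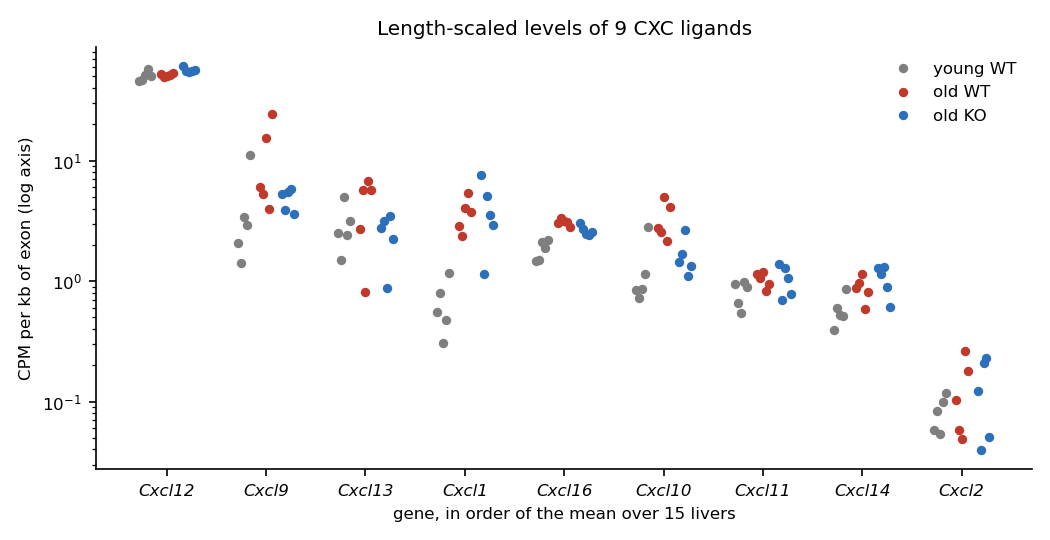
Each point is 1 liver, with the level in CPM per kb of exon on a log axis and the genes ordered by their mean over 15 livers. Cxcl12 sits near 50 in all 3 groups, 7 genes spread between 0.308 and 24.2, and Cxcl2 lies lowest.

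In old against young wild-type liver, 3 of the 8 members that passed the filter on low counts were higher at an adjusted p under 0.05 (edgeR quasi-likelihood test, Benjamini-Hochberg over all tested genes) and 0 were lower. Of all tested genes, 18.8% were called in this comparison, 9.92% higher and 8.91% lower. The median log2 fold change of the 8 members was 0.69, against 0.01 for all tested genes, and each of the 8 estimates was above 0. In old KO against old WT, 0 of 8 members were called with edgeR, and 0 of 8 with DESeq2. Of all tested genes 0.533% were called there with edgeR, 0.112% higher and 0.421% lower. At an unadjusted p under 0.05 there were 2 of 8, Cxcl9 and Cxcl10, both lower in old KO, where 11.6% of all tested genes passed. The median of the members was −0.11 in that comparison, with 4 estimates above and 4 below 0. In old KO against young WT, 3 members were called higher and 0 lower, with 23.3% of all tested genes called, 12.0% higher and 11.3% lower. These were Cxcl1, Cxcl14 and Cxcl16. The 3 comparisons share libraries in pairs, so their values stand side by side and are not independent of each other.

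**Figure D2:**
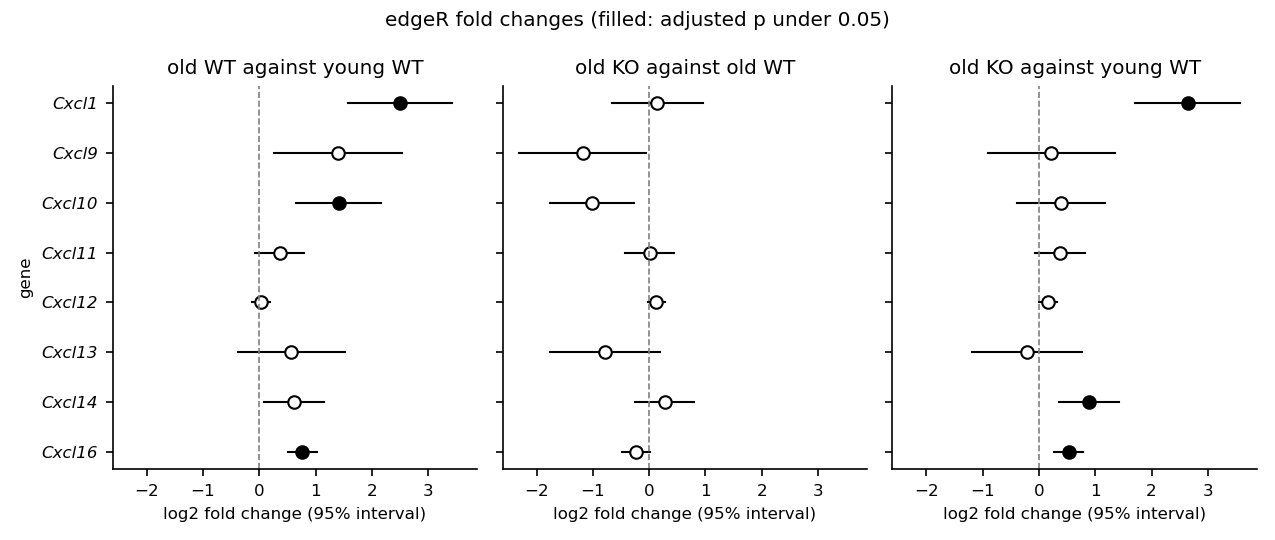
Log2 fold changes (x axis) of the 8 members that passed the filter, with 95% intervals, in the 3 comparisons; filled points have an adjusted p under 0.05. Cxcl1, Cxcl10 and Cxcl16 are filled in the comparison of old with young wild-type liver, no point is filled for old KO against old WT, and Cxcl1, Cxcl14 and Cxcl16 are filled on the right.

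Cxcl1 showed the largest change with age of the members. Its level was 0.527, 0.763, 0.293, 0.452 and 1.12 CPM in young WT 1, 2, 3, 4 and 6. In old WT 1, 4, 5, 7 and 10 it was 2.72, 2.28, 3.82, 5.13 and 3.57 CPM. All 5 old WT livers lay above all 5 young ones, and 5.78% of all tested genes were separated in this direction. The log2 fold change was 2.50 (SE 0.44, 95% interval 1.57 to 3.43, adjusted p = 0.0018), a 5.65-fold difference, from 9 to 26 counts per young library and 64 to 140 per old WT library. In old KO 1, 2, 4, 5 and 6 the level was 7.30, 1.09, 4.84, 3.35 and 2.78 CPM, which spans the whole old WT range and beyond it on both sides. Old KO 2 fell within the young WT range while old KO 1 had the highest level of all 15 livers. Against old WT the log2 difference was 0.15 (SE 0.38, interval −0.67 to 0.96, adjusted p = 0.93), and it was −0.22 without old KO 1. Against young WT it was 2.65 (SE 0.44, adjusted p = 0.00089).

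Cxcl2, the neighbour of Cxcl1 that shares its receptor, was close to the detection limit. The 2 genes lie in tandem on the plus strand of chromosome 5, Cxcl1 at chr5:91320267-91322141 and Cxcl2 at chr5:91332897-91334935 (NCBIM37, which is mm9), with 10.8 kb between them. Cxcl2 had 2 to 13 counts per library, 23 in all young WT, 34 in all old WT and 29 in all old KO libraries, and it was the member that did not pass the filter. Its level was 0.150 ± 0.050 CPM (SD, n = 5) in young WT, 0.238 ± 0.16 in old WT and 0.239 ± 0.16 in old KO. An exact 2-sided permutation test of log2(CPM + 0.1) gave p = 0.36 for old against young WT, p = 1 for old KO against old WT and p = 0.38 for old KO against young WT, where 252 assignments allow 0.00794 at best. No difference was detectable at this depth.

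The sequences before the start sites of these 2 genes carry the same NF-κB match, and are shown with those of Cxcl9 and Cxcl10, which differ in this respect although they are neighbours too. Each is the 250 bases before the RefSeq start site, 5′ to 3′, in GRCm38.p6 coordinates, with matches to the NF-κB consensus or to the core of the interferon-stimulated response element (ISRE) in capitals. RefSeq promoters were matched for 7 of the 9 members.
Cxcl1 (chr5:90890995-90891244, plus strand): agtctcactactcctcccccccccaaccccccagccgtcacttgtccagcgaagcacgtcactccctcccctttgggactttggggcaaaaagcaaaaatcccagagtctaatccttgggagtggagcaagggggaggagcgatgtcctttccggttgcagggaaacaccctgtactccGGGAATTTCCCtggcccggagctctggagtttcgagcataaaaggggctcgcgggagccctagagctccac
Cxcl2 (chr5:90903649-90903898, plus strand): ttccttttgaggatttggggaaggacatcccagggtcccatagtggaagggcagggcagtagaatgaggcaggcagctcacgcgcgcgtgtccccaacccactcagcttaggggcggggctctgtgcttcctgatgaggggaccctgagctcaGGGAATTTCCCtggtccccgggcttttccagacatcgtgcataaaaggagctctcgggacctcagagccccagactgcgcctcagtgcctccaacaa
Cxcl9 (chr5:92328080-92328329, minus strand): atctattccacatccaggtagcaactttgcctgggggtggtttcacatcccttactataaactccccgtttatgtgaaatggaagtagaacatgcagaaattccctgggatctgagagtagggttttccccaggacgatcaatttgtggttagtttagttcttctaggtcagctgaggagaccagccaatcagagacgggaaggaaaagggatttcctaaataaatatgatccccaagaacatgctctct
Cxcl10 (chr5:92348890-92349139, minus strand): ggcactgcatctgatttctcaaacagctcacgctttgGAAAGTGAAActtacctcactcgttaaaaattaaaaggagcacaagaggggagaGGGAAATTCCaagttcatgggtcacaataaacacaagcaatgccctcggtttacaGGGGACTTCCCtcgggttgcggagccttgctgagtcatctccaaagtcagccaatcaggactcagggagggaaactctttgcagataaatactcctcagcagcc
Overlapping matches on the 2 strands run together in capitals. The NF-κB consensus was found, on either strand, 71 to 61 bases before the Cxcl1 start site and 97 to 87 bases before that of Cxcl2. In Cxcl10 it was found at 159 to 150 and at 104 to 94 bases, with the ISRE core at 213 to 204. Cxcl14 held the ISRE core and also TTCNNNGAA, the gamma-activated sequence, neither overlapping the other. No match to any of the 3 motifs was present in these windows of Cxcl9, Cxcl12 and Cxcl13. Of 32851 promoters of the same length, 7.25% held the NF-κB consensus, 2.98% the ISRE core and 7.02% TTCNNNGAA, against 3, 2 and 1 of the 7 members. A match is a string of letters and says nothing about binding.

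**Figure D3:**
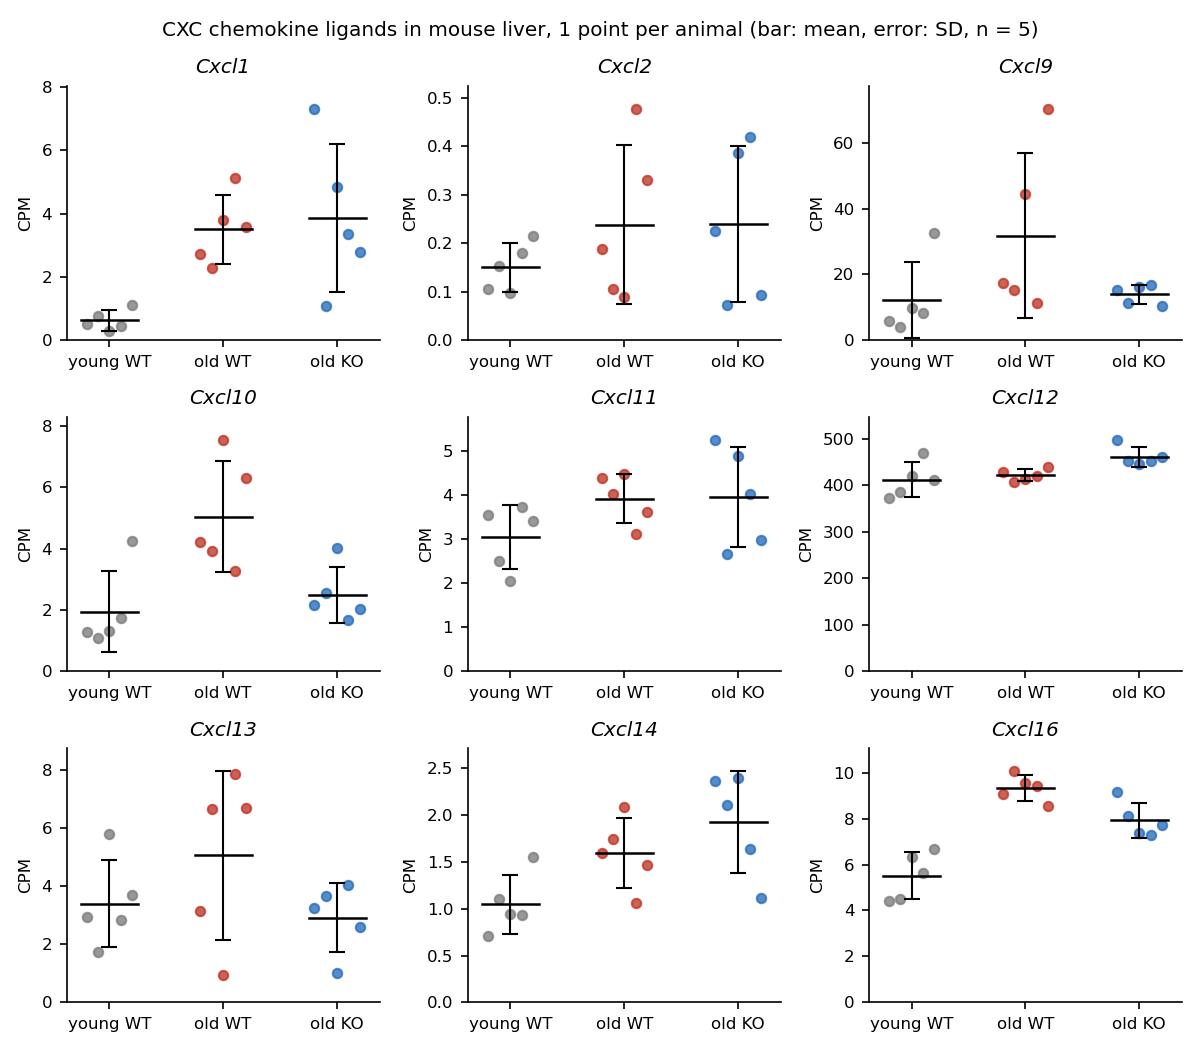
Levels in CPM (y axes, each from 0) of the 9 genes in young WT, old WT and old KO; each point is 1 liver, the long bar the mean and the error bar the SD (n = 5). Cxcl1 and Cxcl16 separate old from young wild-type livers, Cxcl9 and Cxcl10 each have 1 high young liver, and the old KO livers lie above the old WT livers for Cxcl12.

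Cxcl9, Cxcl10 and Cxcl11, the 3 ligands of Cxcr3, lie next to each other on the minus strand of chromosome 5 (NCBIM37), at chr5:92750357-92757105, chr5:92775664-92777915 and chr5:92788570-92794511. Gaps of 18.6 kb and 10.7 kb separate them. Cxcl10 was called higher with age, while Cxcl9, with an estimate of the same size, and Cxcl11, with a smaller one, were not. Differences between the 3 genes were not tested.

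Cxcl10 stood at 1.29, 1.10, 1.30, 1.75 and 4.27 CPM in young WT 1, 2, 3, 4 and 6. It reached 4.22, 3.91, 7.54, 3.26 and 6.32 CPM in old WT 1, 4, 5, 7 and 10. Every young liver but young WT 6 lay below all old WT livers, and young WT 6 lay among them. The log2 fold change was 1.41 (SE 0.36, interval 0.66 to 2.17, adjusted p = 0.013), or 2.66-fold, and it was 1.90 (adjusted p = 0.00071) without young WT 6. The old KO livers 1, 2, 4, 5 and 6 had 2.17, 2.54, 4.03, 1.68 and 2.04 CPM. All of them but old KO 4 lay below every old WT liver. Against old WT the log2 difference was −1.02 (SE 0.35, interval −1.77 to −0.27, unadjusted p = 0.010), which did not pass adjustment over all genes (adjusted p = 0.24). With DESeq2 the adjusted p was 0.12, and over the 15 refits that each left out 1 library it lay between 0.092 and 0.43. Old KO against young WT gave 0.39 (SE 0.37, interval −0.38 to 1.17, adjusted p = 0.47), and 0.87 (adjusted p = 0.040) without young WT 6. An exon of Art3, on the other strand, shares 133 bases or 8.75% of the Cxcl10 exons. Art3 itself moved by −0.09 (adjusted p = 0.75) and 0.01 (adjusted p = 0.99) in the age and genotype comparisons.

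Cxcl9 had a wide spread within the wild-type groups, set by a few high livers. Its level was 6.03, 4.12, 9.81, 8.41 and 32.5 CPM in young WT 1, 2, 3, 4 and 6. It was 17.5, 15.4, 44.4, 11.5 and 70.2 CPM in old WT 1, 4, 5, 7 and 10. The group means of 12.2 ± 11.6 and 31.8 ± 25.1 CPM (SD, n = 5) rest on 1 and 2 livers. The log2 fold change with age was 1.40 (SE 0.54, interval 0.27 to 2.54) and was not called (adjusted p = 0.077). It passed without young WT 6, at 2.17 (adjusted p = 0.0050), and without old WT 7, at 1.63 (adjusted p = 0.042), and it was 0.89 (adjusted p = 0.24) without old WT 10. In old KO 1, 2, 4, 5 and 6 the level was 15.4, 11.3, 16.1, 16.9 and 10.4 CPM. The coefficient of variation was 21.1% in old KO and 78.9% in old WT. In young WT it was 95.1%, and without young WT 6 it was 35.6% around a mean of 7.09 CPM. No old KO liver came near the 2 high old WT livers. The old KO livers overlapped the 3 lower old WT livers, and the log2 difference of −1.18 (SE 0.53, interval −2.31 to −0.05, unadjusted p = 0.041) was not called (adjusted p = 0.40). Without old WT 10 it was −0.67 (adjusted p = 0.66). Old KO against young WT gave 0.22 (SE 0.54, adjusted p = 0.79), which was 0.98 without young WT 6.

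Cxcl11 lay within a narrow band. Its lowest and highest levels were 2.05 and 3.74 CPM among young WT livers, 3.12 and 4.47 among old WT livers, and 2.65 and 5.24 among old KO livers. The log2 differences were 0.36 (SE 0.21, adjusted p = 0.24) with age and 0.01 (SE 0.21, interval −0.43 to 0.45, adjusted p = 0.99) for old KO against old WT. The annotation lists this gene as a processed transcript and not as protein coding, and the C57BL/6 allele is known for a frameshift that removes the protein. Gm2673, on the other strand, shares 1582 bases or 41.7% of the Cxcl11 exons and had 0 counts in each library. Whether the counting used the strand is not known here. The 0 counts therefore do not show that the overlap left the Cxcl11 level unchanged. The same limit applies to Cxcl10 and Art3.

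Of the 28 pairs of members, Cxcl9 and Cxcl10 had the highest correlation across livers, and it did not pass adjustment over the pairs. On log2 CPM, with each group's mean subtracted, Pearson's r over the 15 livers was 0.81 (permutation p = 0.0039, 100000 shuffles within groups) and Spearman's rho was 0.73 (permutation p = 0.0051). Adjusted over the 28 pairs of members, the permutation p-values were 0.11 for r and 0.14 for rho. The unadjusted values belong to a pair picked for its r. Without the 2 livers farthest from the median of Cxcl9, r was 0.68, and without young WT 6, left out after the data were seen, it was 0.67. Within the groups it was 0.95 in young WT, 0.92 in old WT and 0.10 in old KO, with 5 livers each, and the difference between groups was not tested. The highest livers for both genes were old WT 5 and old WT 10 among the old and young WT 6 among the young. For Cxcl11, r was 0.28 against Cxcl9 and 0.37 against Cxcl10.

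**Figure D4:**
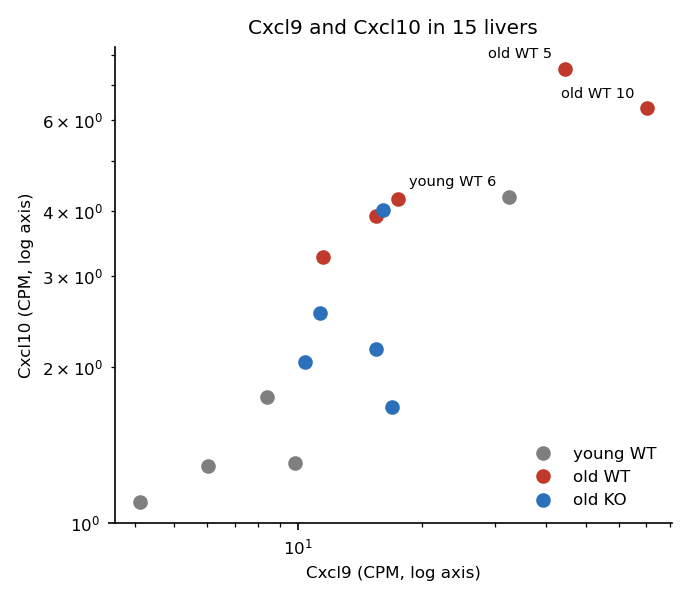
Cxcl9 (x axis) against Cxcl10 (y axis), both in CPM on log axes, with 1 point per liver coloured by group. The wild-type livers run along one rising band from 4.12 and 1.10 CPM up to old WT 5 and old WT 10, and the old KO livers are bunched between 10.4 and 16.9 CPM of Cxcl9.

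Cxcl16 had the smallest standard error of the 3 age differences that were called. It was at 4.42, 4.52, 6.32, 5.63 and 6.68 CPM in young WT 1, 2, 3, 4 and 6. In old WT 1, 4, 5, 7 and 10 it was at 9.09, 10.1, 9.54, 9.42 and 8.56 CPM. The 2 groups did not overlap, and the log2 fold change was 0.76 (SE 0.12, interval 0.51 to 1.02, adjusted p = 0.00098), or 1.70-fold. The old KO livers 1, 2, 4, 5 and 6 had 9.17, 8.10, 7.37, 7.29 and 7.70 CPM, all above young WT, where 7.32% of all tested genes were separated in this direction. The log2 difference from young WT was 0.53 (SE 0.12, adjusted p = 0.0060). Against old WT it was −0.24 (SE 0.12, interval −0.49 to 0.02, adjusted p = 0.47), with 4 of 5 old KO livers below all old WT livers. The gene lies on the minus strand at chr11:70267485-70273486 (NCBIM37), on the same chromosome as Rps6kb1 and 16.0 Mb from it. Zmynd15 on the other strand shares 552 bases or 18.3% of the Cxcl16 exons, and it too was higher in old than in young WT, at 5.40 ± 0.46 against 3.49 ± 0.52 CPM (log2 0.63, adjusted p = 0.0028). The library kit keeps the strand, but whether the counting used it is not given in the sources used here, so reads of these 2 genes may not be fully separated.

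Cxcl12, the ligand of Cxcr4 that retains blood-forming cells and lymphocytes in their niches, lies on the plus strand at chr6:117118553-117131385 (NCBIM37). Its level was 372, 385, 421, 468 and 412 CPM in young WT 1, 2, 3, 4 and 6 and 428, 406, 414, 420 and 440 CPM in old WT 1, 4, 5, 7 and 10. With age the log2 difference was 0.03 (SE 0.07, interval −0.12 to 0.19), an interval that reaches up to 1.14-fold. In old KO 1, 2, 4, 5 and 6 it was 497, 451, 445, 451 and 460 CPM, and every one of these was above every old WT liver. Of all tested genes, 1.12% were separated in this direction. The log2 difference was 0.13 (SE 0.07, interval −0.03 to 0.29) and was not called (adjusted p = 0.53). The coefficient of variation within groups was 3.07% to 9.08%, the lowest range in the family.

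Cxcl13, which draws B cells through Cxcr5 into follicles, was low and uneven. On the plus strand at chr5:96385945-96390086 (NCBIM37), it gave 2.95, 1.74, 5.80, 2.83 and 3.71 CPM in young WT 1, 2, 3, 4 and 6. The old WT livers 1, 4, 5, 7 and 10 gave 3.16, 6.69, 0.954, 7.88 and 6.69 CPM, so that the lowest and the highest of the wild-type values were both old. The old KO livers 1, 2, 4, 5 and 6 gave 3.26, 3.67, 1.03, 4.07 and 2.60 CPM. The log2 differences were 0.57 (SE 0.45, adjusted p = 0.40) with age and −0.78 (SE 0.46, interval −1.76 to 0.19, adjusted p = 0.54) for old KO against old WT. Old WT 5 had the lowest Cxcl13 and the highest Cxcl10 of the 15 livers.

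Cxcl14, an epithelial chemokine at chr13:56390008-56397912 on the minus strand (NCBIM37), was low throughout. It was at 0.711, 1.10, 0.945, 0.934 and 1.55 CPM in young WT 1, 2, 3, 4 and 6, at 1.59, 1.74, 2.09, 1.06 and 1.47 CPM in old WT 1, 4, 5, 7 and 10, and at 2.36, 2.11, 2.40, 1.64 and 1.11 CPM in old KO 1, 2, 4, 5 and 6. All old KO livers but old KO 6 lay above all young WT livers. Old KO against young WT gave a log2 fold change of 0.90 (SE 0.25, interval 0.36 to 1.43, adjusted p = 0.018), which lost the call without young WT 1 (0.78, adjusted p = 0.0501). With age in wild type it was 0.62 (SE 0.25, interval 0.09 to 1.15, adjusted p = 0.093), and it passed without young WT 6 at 0.80 (adjusted p = 0.032) and without old WT 7 at 0.74 (adjusted p = 0.049). Against old WT, old KO differed by 0.27 (SE 0.24, adjusted p = 0.73).

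Of the 6 CXC ligands outside these 9, Ppbp and Pf4 passed the filter, and both are stored in platelets. Ppbp was higher in old than in young WT, at 0.665 ± 0.31 against 0.209 ± 0.12 CPM (log2 1.64, SE 0.43, adjusted p = 0.015). Pf4 gave 1.12 (SE 0.47, adjusted p = 0.11) in that comparison. Neither was called in old KO against old WT, with −0.74 (adjusted p = 0.51) for Ppbp and 0.06 (adjusted p = 0.98) for Pf4. Cxcl5 and Cxcl15 had 0 to 11 counts per library, Cxcl17 had 2 counts in all, and Cxcl3 had 0 in each library.

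The receptors were scarce in all 3 groups, with the 8 receptor genes together at 4.37 to 10.2 CPM. Of these, 7 passed the filter and 1 was called, Ackr1, a scavenging receptor of venules and red cells that binds Cxcl1. It was at 0.550 ± 0.21 CPM in young WT and 1.04 ± 0.40 CPM in old WT (log2 0.90, SE 0.30, adjusted p = 0.045), a call that held in 5 of 15 refits that each left out 1 library. Among all tested genes 9.92% were called higher with age. Cxcr2, the receptor of Cxcl1 and Cxcl2, gave −0.02 (SE 0.24, adjusted p = 0.97) with age. Cxcr3 gave 0.42 (SE 0.41, adjusted p = 0.51) and Cxcr6, the receptor of Cxcl16, gave 0.46 (SE 0.37, adjusted p = 0.41). For old KO against old WT, 0 of 7 were called with edgeR and 0 at an unadjusted p under 0.05. Of the 7 estimates 4 were below 0, among them −0.26 for Cxcr3, −0.79 (SE 0.39, adjusted p = 0.45) for Cxcr6 and −0.29 for Cxcr4. The other 3, for Cxcr2, Cxcr5 and Ackr3, were above 0. Mean levels in old WT and old KO were 1.18 and 1.30 CPM for Cxcr2. They were 0.940 and 0.992 CPM for Cxcr5 and 0.648 and 0.940 CPM for Ackr3. Of 5 proteases that trim or release these ligands, Dpp4, Adam10, Adam17 and Mmp9 passed the filter, and 0 of 4 were called in any of the 3 comparisons with edgeR, with 1, 0 and 1 at an unadjusted p under 0.05.

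Among the regulators upstream of these genes, the NF-κB list of 13 genes had 3 called higher and 1 lower in old against young WT. In that comparison 9.92% of all tested genes were called higher and 8.91% lower. Tnf, the inducing cytokine, was higher by 1.43 on the log2 scale (SE 0.44, adjusted p = 0.035), the subunit Nfkb2 by 0.62 (SE 0.13, adjusted p = 0.0050) and the feedback inhibitor Tnfaip3 by 0.71 (SE 0.17, adjusted p = 0.0091). Il1r1, the interleukin 1 receptor, fell by 1.23 (SE 0.31, adjusted p = 0.013). The median of the list was 0.13. The calls for Nfkb2, Tnfaip3 and Il1r1 held in 15 of 15 refits that each left out 1 library, and that for Tnf in 9. Of the interferon-gamma list, 9 of 11 genes were tested and Irf1, a transcription factor of this pathway, was called higher with age (log2 0.48, SE 0.15, adjusted p = 0.036), in 8 of 15 such refits. Ifng itself had 4, 4 and 3 counts in all young WT, old WT and old KO libraries, so its level could not be compared at this depth. For old KO against old WT, 0 of 13 and 0 of 9 genes of these lists were called with edgeR, where 0.533% of all tested genes were. At an unadjusted p under 0.05 there were 4 of 13 and 1 of 9, where 11.6% of all tested genes passed. The medians were −0.12 and −0.11, with 10 of 13 and 5 of 9 estimates below 0. The summed interferon-gamma list was highest in old WT 5 (454 CPM), then young WT 6 (445), old KO 1 (443) and old WT 1 (422). Old WT 10, the liver with the highest Cxcl9, came at rank 5 of 15 (413 CPM). A link of this sum with Cxcl9 or Cxcl10 was not tested.

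Markers of the cells that make or follow these ligands moved as well, and their part in the results above was not tested. Counts of called markers stand beside shares of all tested genes of 9.92% higher and 8.91% lower with age. For old KO against old WT these shares were 0.112% higher and 0.421% lower. In old against young WT, 2 of 8 T cell markers were called higher, Cd3e (1.96-fold, adjusted p = 0.047) and Cd8a (3.99-fold, adjusted p = 0.019), and 1 of 7 B cell markers, Ms4a1 (3.26-fold, adjusted p = 0.032). The estimate was below 0 for 1 of 8 T cell markers, Cd4 (log2 −0.61, adjusted p = 0.35), and for 2 of 7 B cell markers, Cr2 (log2 −0.86, adjusted p = 0.12) and Fcer2a (log2 −0.43, adjusted p = 0.42). The 3 calls held in 4, 14 and 11 of 15 refits that each left out 1 library. The summed T cell markers spanned 2.90 to 7.07 CPM among young WT livers, 4.34 to 13.7 among old WT livers and 2.78 to 8.20 among old KO livers. In old KO against old WT all 8 T cell estimates were below 0, with a median of −0.68, and 0 of 8 were called with edgeR (1 at an unadjusted p under 0.05). Of the B cell estimates 6 of 7 were below 0 there, with a median of −0.55, and 0 of 7 were called with edgeR (1 at an unadjusted p under 0.05). Of the macrophage and Kupffer cell list, 4 of 8 were called lower in old KO against old WT, with log2 fold changes of −1.18 for Cd68, −1.27 for Clec4f, −1.47 for Cd5l and −1.19 for Vsig4 and adjusted p between 0.025 and 0.048. All 8 estimates of the list were below 0, with a median of −1.19. All 8 had an unadjusted p under 0.05, where 11.6% of all tested genes passed. The 4 calls at an adjusted p under 0.05 held in 4 to 9 of the 15 refits. The summed list was at 114 to 161 CPM in old KO, 184 to 499 in old WT and 159 to 360 in young WT, and with age 0 of 8 were called (2 at an unadjusted p under 0.05). Of 7 endothelial markers, Stab1 (log2 −0.47), Stab2 (−0.56) and Lyve1 (−0.94) were lower with age and 0 were called for genotype. Of 8 neutrophil markers 2 passed the filter and 0 were called with edgeR in any comparison, also at an unadjusted p under 0.05. All 8 neutrophil markers together summed to 1.39 to 12.7 CPM. Ly6g, which defines these cells, had 0 or 1 count per library, and of the other lists Ccl21a, Cpa1, Pnlip and Amy2a5 had 0 in each. One of 5 mesothelial markers was higher with age, Lrrn4 (log2 2.13, adjusted p = 0.00024). The list summed to 1.84 to 4.30 CPM in young WT and 6.17 to 7.73 in old WT. In old KO it summed to 2.46 to 11.1 CPM, a range that overlaps both. Of 9 stellate and fibroblast markers, Col3a1 was higher (log2 1.01) and Reln lower (log2 −0.57) with age, and of 5 hepatocyte markers Apoa1 was lower (log2 −0.69). Of the lymphoid tissue genes 3 of 7 were tested and 0 were called with edgeR, with 1 at an unadjusted p under 0.05 for age and 1 for genotype. No adipocyte marker passed the filter, and the single pancreatic marker that did, Cela1, was not called with age or genotype. In old KO against young WT, 12.0% of all tested genes were called higher and 11.3% lower. Some calls there repeated those above. Lower were 4 of 8 macrophage markers (Clec4f, Cd5l, Csf1r, Timd4) and 3 of 7 endothelial markers (Stab1, Stab2, Lyve1). Reln, 1 of 9 stellate and fibroblast markers, and Il1r1, 1 of 13 NF-κB genes, were also lower. Higher were Col1a1 and Col3a1 (2 of 9), Wt1 and Lrrn4 (2 of 5 mesothelial markers), Ttr (1 of 5 hepatocyte markers) and Cela1. Of the 9 tested interferon-gamma genes, 2 were higher, Jak2 and Irf1.

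For each member, the 3 genes with the highest Pearson's r of log2 CPM over the 15 livers were listed among tested genes of at least 1 CPM, as a description of likeness that holds the group differences as well. For Cxcl9 they were Gbp2 (r = 0.95), BC023105 (0.94) and Irgm1 (0.93), and with the group means subtracted r was 0.93, 0.93 and 0.92. Gbp2 and Irgm1 are interferon-inducible GTPases. For Cxcl10 they were Cmpk2 (0.93), Gbp6 (0.89) and Rtn4 (0.89), with 0.89, 0.83 and 0.91 after subtraction. For Cxcl11 they were Uros (0.88), Stat2 (0.86), a signal transducer of type I interferon, and Nup35 (0.84). For Cxcl1 they were Dhrs9 (0.93), Setd8 (0.93) and B230354K17Rik (0.92), which dropped to 0.76, 0.69 and 0.82. For Cxcl16 they were Ntrk2 (0.94), Gm7592 (0.93) and Ms4a7 (0.92), which dropped to 0.70, 0.69 and 0.78. For Cxcl12 they were Keg1 (0.89), Cyp2c69 (0.85) and Sdc2 (0.84). For Cxcl13 they were Ctla2b (0.80), Dock11 (0.80) and Usp34 (0.79), the lowest values of the family. For Cxcl14 they were Ddah1 (0.95), Sc5d (0.93) and Osgep (0.92). No 2 members had a gene in common among these 24. All 24 were picked for a high r among all genes searched. Their values of r, also those with the group means subtracted, were not tested against that search.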

How the data were processed

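Liver mRNA of 15 mice was measured by the authors with a stranded single-end protocol, and the deposited values are whole-number counts of reads per gene. Per the labels' processing notes the tools were CASAVA, TopHat2 2.0.11 and DESeq2 1.18.1 on mm9. The study's methods name HTSeq for counting; its annotation and strand setting are not given in the sources used here. Groups came from the labels, which do not state separate cages or litters, so p-values measure the spread between these animals.

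Counts were tested with edgeR 4.0.16 in R 4.3.3 (quasi-likelihood, TMM, filterByExpr, 15 libraries in one fit with a mean per group, Benjamini-Hochberg, threshold 0.05), with fold changes and 95% intervals from the same fit. DESeq2 1.42.0, RLE scaling, no filter, at least 10 counts in every library, the 10 libraries of a contrast alone, a replicate block and leaving out each library were alternatives. The fitting step was tested on simulated data. Positions and exon lengths came from GENCODE M1 on NCBIM37, promoters from RefSeq (GRCm38.p6). The 9 members and 16 gene lists were chosen with earlier results of these data known. Named were the members, the other CXC ligands and receptors, list genes called in a contrast, list genes whose values a sentence needed, and the 3 genes most like each member. Members below the filter were tested by exact permutation of log2(CPM + 0.1). No set test was run. Count totals of 21801754 to 38065359 set the precision, and genes with few counts carry wide intervals.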

Additional observations from a re-analysis of the deposited data

Results flagged for a closer look

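The 9 genes in 3 groups gave 27 groups of 5 livers. In each, the gap from the highest or lowest liver to the next was set against the range. For independent, normally distributed values, chance alone picks out about 1 in 20 such groups. CPM values need not be of that kind, and the Cxcl9 and Cxcl10 flags below come from the same liver, so this rate is only a guide. The test picked out 3. Cxcl9 in young WT 6, at 32.5 CPM, was far above the next young liver at 9.81 CPM. Cxcl10 in the same liver, at 4.27 CPM, was far above the next at 1.75 CPM. Cxcl12 in old KO 1, at 497 CPM, was above the next old KO liver at 460 CPM.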

How the results depend on the processing

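The number of members called with age was 3 with DESeq2, RLE scaling, no filter and the 10 libraries alone, 2 with at least 10 counts in every library, which drops Cxcl1, and 3 to 5 when 1 library was left out. It was 5 without young WT 6 and without old WT 7, adding Cxcl9 and Cxcl14. For old KO against old WT it was 0 in every alternative. For old KO against young WT it was 2 to 4.

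Some replicate numbers recur across groups, but they do not pair the animals: correlations of same-numbered libraries, as deviations from group means, were −0.15 to 0.08, and none of 6 libraries in the 3 pairs of old KO and old WT correlated best with its own number. Numbers 3, 7 and 10 recur in no other group. A block by replicate number therefore takes young WT 3, old WT 7 and old WT 10 out of the group differences. With a replicate block the age count was 1 (Cxcl16), with Cxcl1 at 1.70 (adjusted p = 0.14) and Cxcl10 at 1.52 (adjusted p = 0.11). With this block, calls over all genes went from 2685 to 899 with age and from 76 to 6 for genotype. Cxcl14 in old KO against young WT was 0.87 (adjusted p = 0.10).

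Among the members, directions turned only where the reported estimate was no farther from 0 than 0.22. For old KO against old WT, Cxcl2 went from −0.0074 to 0.00099 with a pseudocount of 1 and to −0.20 to 0.22 without 1 library, Cxcl1 to −0.22 without old KO 1, and Cxcl11 from 0.01 to −0.06, −0.02, −0.11, −0.07 and −0.000857 without old WT 7, old WT 10, old KO 1, old KO 4 and old KO 5. Cxcl12 with age was −0.00054 without young WT 1. For old KO against young WT, Cxcl9 was −0.0028 without young WT 2, and Cxcl13 went from −0.21 to 0.23 with the block, 0.073 without young WT 3 and 0.00313 without old KO 4. Over all refits that left out 1 library, these estimates ran from −0.22 to 0.38 for Cxcl1 and −0.11 to 0.12 for Cxcl11 in old KO against old WT, from −0.00054 to 0.075 for Cxcl12 with age, and from −0.0028 to 0.98 for Cxcl9 and −0.38 to 0.073 for Cxcl13 in old KO against young WT. The cause was not tested. Depth limits Cxcl2, Ifng and most receptors.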
